A study of Mus musculus with 3 samples.

Results

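The genes described here carry the symbols of proteins of the cytosolic ribosome. A symbol was taken when it was *Rpl* or *Rps* followed by a number and at most an ending of a, x, l, al or l1, or was *Rplp0*, *Rplp1*, *Rplp2* or *Rpsa*, which gave 87 genes of the 30595 symbols found once in each of 2 deposited tables. Of these, 54 carry a large subunit symbol and 33 a small subunit symbol. The GENCODE annotation types 83 of the 87 as protein-coding and 4 as pseudogenes (*Rpl6l*, *Rpl32l*, *Rps12l1* and *Rps4l*). In 82 of the 87, 49 large and 33 small, the mean over the 3 groups reached 10 TPM. Of these 82, 80 are typed as protein-coding. TPM, a transcript abundance unit, is a read number corrected for transcript length and scaled to the same total in every group, so levels can be set side by side between genes and every value is a share of the whole.

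The ribosome joins a large subunit, which forms peptide bonds, to a small subunit, which reads the mRNA. Each subunit needs its proteins in nearly equal numbers, and their mRNAs are among the most abundant in dividing and secreting cells. Most of these mRNAs begin with a C followed by a run of C and T bases, the 5′ terminal oligopyrimidine (TOP) tract, through which the kinase mTOR governs their translation. In the liver, hepatic stellate cells (HSCs) store vitamin A in the healthy organ and turn into matrix-producing myofibroblasts in fibrosis, a change that calls for much protein synthesis.

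HSCs were isolated by density gradient from livers of C57BL/6 females, wild type and older than 24 weeks, which all groups shared. The cells were kept for 24 h in medium with 0.2% FBS and then for a further 24 h without a stimulus (untreated), with recombinant human FGF18 at 100 ng/mL or with TGFb1 at 1 ng/mL. FGF18 is a growth factor that acts through FGF receptors and the MEK-ERK cascade, and TGFb1 is the classical inducer of collagen genes in these cells. The study states triplicate samples, whereas the labels give 1 record per condition and each group has a single mean level in the files. All values below are means computed by the authors, without an SD, an n or a test. The authors' own comparison, with an error and p-values, was not used, so differences here have no replicate check.

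All 13 stellate cell markers were present, with *Dcn* at 7021 TPM, *Lrat* at 151 TPM and *Des* at 148 TPM in untreated cells. Their summed level was 11122 TPM untreated, 4884 TPM with FGF18 and 9960 TPM with TGFb1. The sum with TGFb1 was held up by the collagen genes *Col3a1*, at 893 TPM untreated and 3322.5 TPM with TGFb1, and *Col1a1*, at 52.4 and 380 TPM. Of the 13 markers, 10 were lower with TGFb1 and 12 with FGF18, with median folds on the (TPM + 1) scale of 0.61 and 0.54. All 6 hepatocyte, 4 lymphocyte and 4 biliary markers stayed under a mean of 10 TPM (*Alb* at 6.03 TPM untreated), and none of the markers was listed at 0 in any group. The 6 endothelial markers summed to 286, 212 and 126 TPM and the 6 macrophage markers to 55.8, 90.0 and 49.9 TPM in the same order of groups, of which *Cd68* held 52.1, 85.0 and 43.0 TPM. These sums moved between the same groups as the ribosomal protein genes, and their part in the results was not tested. In such bulk RNA, fewer cells of a type and less RNA per cell cannot be told apart.

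The annotated starts of a few genes are shown because the TOP tract is the feature that ribosomal protein mRNAs share. Each window holds 15 bases before and 15 bases from the RefSeq start in GRCm38.p6, read along the gene's strand. Capitals mark the pyrimidine run. *Rps6*, *Rpl35*, *Rpl15*, *Rps10* and *Rpl38* open with a C and a run, as do *Rpl28*, the lowest log2 ratio with FGF18, and *Rplp2*. In *Rpl22l1*, the gene that differed most between the stimuli, the annotated start is a G and the run begins at the next base.
Rps6, chr4:86857353-86857382, minus strand: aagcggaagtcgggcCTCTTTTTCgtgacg
Rpl35, chr2:39005117-39005146, minus strand: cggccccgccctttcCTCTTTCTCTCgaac
Rpl15, chr14:18270972-18271001, minus strand: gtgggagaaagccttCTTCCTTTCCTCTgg
Rps10, chr17:27635230-27635259, minus strand: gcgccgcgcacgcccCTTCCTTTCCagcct
Rpl38, chr11:114668565-114668594, plus strand: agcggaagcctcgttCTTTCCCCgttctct
Rpl28, chr7:4792950-4792979, plus strand: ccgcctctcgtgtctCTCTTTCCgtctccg
Rplp2, chr7:141447636-141447665, plus strand: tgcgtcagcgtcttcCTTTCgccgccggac
Rpl22l1, chr3:28805493-28805522, plus strand: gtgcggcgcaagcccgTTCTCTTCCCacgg

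RefSeq promoter windows, from 250 bases before to 50 bases after the start, were found for 64 of the 87 genes. A C at the annotated start within a run of at least 5 C or T bases occurred in 14 of these 64 genes (21.9%), against 3.01% of all 27025 genes with a window and 2.94% of 6933 other genes with a mean of 10 TPM or more. A gene whose annotated start lies 1 base before its run, such as *Rpl22l1*, is not counted. The 13 genes with the run and a mean of at least 10 TPM had median log2 ratios of 0.20 with FGF18 and 0.17 with TGFb1, and the 47 without it 0.13 and 0.16. The sequence CCGGAAG, the core bound by many ETS factors, occurred on either strand of the 300-base window in 25 of the 64 genes (39.1%), in 9.93% of all genes and in 22.8% of the other genes at 10 TPM or more. It is shown in capitals for *Rps6* and for *Rps2*, one of the genes that stood out with FGF18, where it lies on the opposite strand. The 24 genes with the sequence and a mean of at least 10 TPM had median log2 ratios of 0.19 with FGF18 and 0.17 with TGFb1, and the 36 without it 0.14 and 0.15. A match is a description of the letters and not of binding.
Rps6, chr4:86857440-86857469, minus strand: ttaatctacgcCCGGAAGtaacgcccctct
Rps2, chr17:24719925-24719954, plus strand: atttatacgtcCTTCCGGctggtgtagggc

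In untreated HSCs the 87 genes together held 59723 TPM, 5.97% of all transcripts. The share was 6.69% with FGF18 and 6.67% with TGFb1, that is 1.12-fold higher with either stimulus. The gain came to 7164 TPM with FGF18 and 7027 TPM with TGFb1. The share of the large subunit genes was 3.31% untreated, 3.71% with FGF18 and 3.72% with TGFb1, and that of the small subunit genes 2.67%, 2.98% and 2.96%. Both stimulated groups thus lay above untreated for each subunit, and the stimulated groups lay within 0.02 percentage points of each other in the total.

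**Figure D1:**
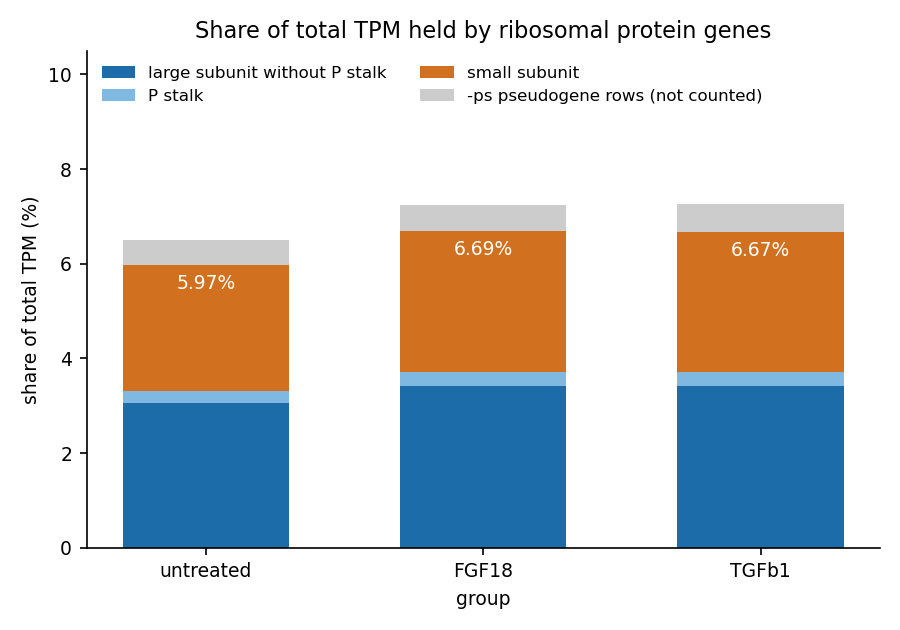
Stacked bars give the share of total TPM, in percent, held by ribosomal protein genes in the 3 groups, with the large subunit without the P stalk, the P stalk and the small subunit from bottom to top and rows of -ps pseudogenes, which are not counted in the printed total, in grey. The total stood at 5.97% in untreated cells, 6.69% with FGF18 and 6.67% with TGFb1.

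Levels of single genes spanned a wide range. Among the 82 genes the median untreated level was 662 TPM, the interquartile range 431 to 909 TPM, and the highest level 60.4 times the lowest. In untreated cells 17 genes stood at 1000 TPM or more, as did 22 with FGF18 and 23 with TGFb1. The 5 most abundant genes held 14.9% of the summed level untreated, 15.03% with FGF18 and 15.01% with TGFb1.

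The most abundant was *Rpl13*, of the large subunit, at 2117 TPM untreated, 2496 TPM with FGF18 and 2376 TPM with TGFb1. *Rps19*, whose human form is mutated in Diamond-Blackfan anaemia, followed at 1819, 1938 and 1932 TPM. Both lay below their stimulated levels in untreated cells. *Rpl41*, the shortest ribosomal protein, was at 1699, 1874 and 1864 TPM. *Rpl32* was at 1580, 1842 and 1848 TPM. These too were lowest in untreated cells.

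**Figure D2:**
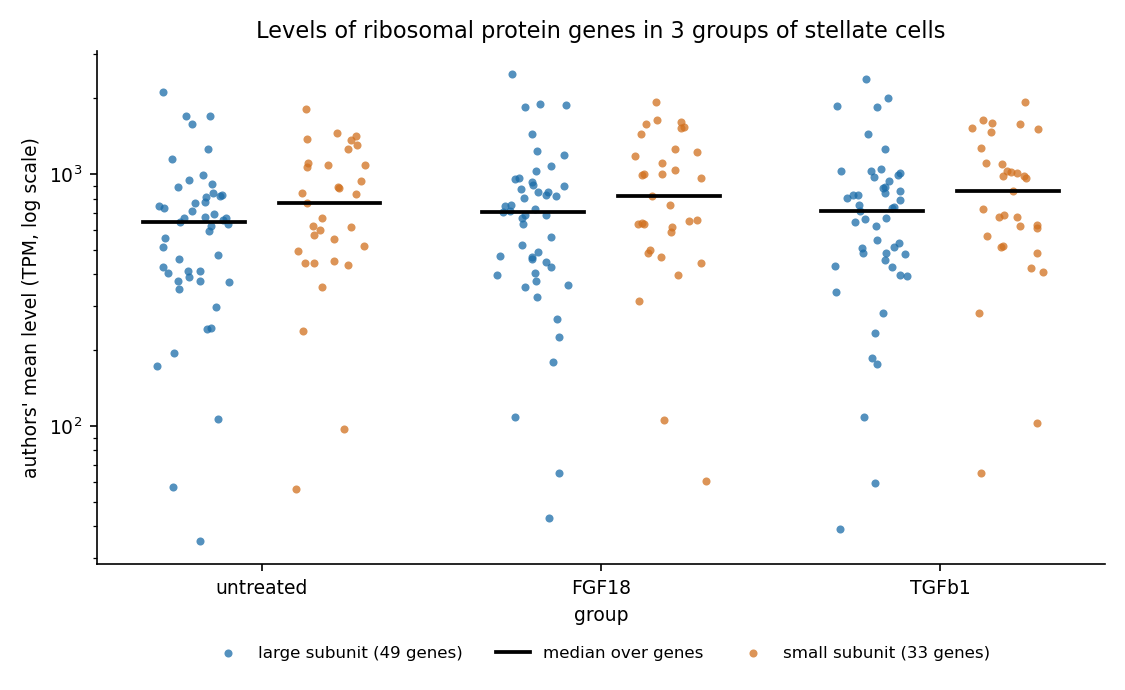
Each point is 1 ribosomal protein gene, with its mean level in TPM on a log axis, in untreated, FGF18 and TGFb1 groups, and black bars mark the median over the 49 large subunit genes (blue) or the 33 small subunit genes (orange). The small subunit median was the higher in all 3 groups, and a tail of few genes reached down to 35.1 TPM.

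At the low end stood *Rpl12*, a protein of the stalk base, at 35.1 TPM untreated, 43.0 TPM with FGF18 and 38.9 TPM with TGFb1. *Rpl5*, which binds the small ribosomal RNA of the large subunit and the p53 regulator Mdm2, was at 57.0, 64.9 and 59.3 TPM. Both are far under the median gene of their subunit, although each ribosome holds them. Mouse ribosomal protein genes have many processed pseudogenes, and how reads of shared sequence were divided is not given in the sources used here. Every 75-base word of the *Rpl12* coding sequence in GENCODE M21 also occurs in the transcript of *Gm10275*, which was listed at 943, 1137 and 1088 TPM. Every word of *Rpl5* occurs in other genes, above all in *Gm15500*, listed at 724, 830 and 879 TPM. Summed over the 2 rows, *Rpl12* with *Gm10275* came to 978, 1180 and 1127 TPM, and *Rpl5* with *Gm15500* to 781, 894 and 938 TPM.

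Such sharing was the rule. Of the 83 protein-coding genes among the 87, 24 had all words of the coding sequence in transcripts of other genes, 61 had at least 50% and the median was 83.1%. Only 11 had under 10%. The gene that shared most words had a row of its own in the tables for 66 of the 83, with a level of at least 100 TPM in 19 and above the ribosomal protein gene itself in 5. *Rps27*, for example, stood at 519 TPM untreated beside *Rps27rt* at 1190 TPM, and *Rps23* at 938 TPM beside *Rps23-ps1* at 928 TPM. *Rpl27a*, with 173 TPM, had *Gm7536* at 594 TPM beside it. Levels of these genes, and the order among them, are therefore uncertain.

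The genes shared further features. The 87 lay on 19 chromosomes, 15 of them on chromosome 7. Of the 83 protein-coding genes, 31 (37.3%) carry the GENCODE mark of a host of small non-coding RNAs, 21 of 52 large and 10 of 31 small subunit genes, against 6.52% of 21951 protein-coding genes. Across 80 protein-coding genes with at least 10 TPM, the mean level followed coding length weakly if at all (Spearman's rho = -0.09, Pearson's r of the log2 level = -0.11). These genes come from the same libraries and are not independent points. The 31 hosts had median log2 ratios of 0.17 with each stimulus, and the other 51 genes 0.16 with FGF18 and 0.17 with TGFb1.

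FGF18 was compared with untreated cells to see how ribosomal protein mRNAs stood after a growth signal. Nearly all of them were a little higher: 80 of the 82 genes lay above untreated, where 45.8% of all 9429 genes whose mean reached 10 TPM did. The median log2 ratio of (TPM + 1) was 0.17, a 1.12-fold difference, and -0.03 over the 9347 other genes. Ratios ran from -0.07 to 0.41. The shift was narrow, with an SD over genes of 0.09 against 0.42 for the other genes. Among 461 other genes whose mean reached 300 TPM, a level nearer that of ribosomal proteins, 60.7% were higher, with a median of 0.07 and an SD of 0.44.

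Past 1.1-fold, 49 of the 82 genes were higher with FGF18 (28.6% of all genes) and 0 lower (37.0% of all genes). The limit for calling a difference was a log2 ratio of 0.32 in either direction, that is a level 25% higher or 20% lower. Past this limit, 3 were higher, where 12.9% of all genes were, and 0 lower, where 20.9% were. Past 1.5-fold there were 0 in either direction, against 4.49% of all genes higher and 7.42% lower. The largest ratio was that of *Rpl22l1*, a paralogue of *Rpl22*, at 244 TPM untreated and 325 TPM with FGF18, 1.33-fold. *Rps12*, a protein of the small subunit beak, was at 239 and 313 TPM, 1.31-fold. *Rps2*, which lies at the mRNA entry of the small subunit, was at 1256 and 1587 TPM, 1.26-fold. These 3 genes differ widely in level, and the untreated value was the lower in each. *Rps12* shares 83.8% of its words with other genes, and with the row of *Rps12-ps3* added its ratio was 1.13-fold.

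*Rpl28* was the gene that lay lowest, at 375 TPM untreated and 356 TPM with FGF18, 0.95-fold. It shares all its words with other genes, and with the row of *Rpl28-ps1* added its ratio was 1.006-fold. *Rps27l* was at 1457 and 1448 TPM, 0.99-fold. *Rpl36*, *Rpl27* and *Rpl36a* lay between 1.00-fold and 1.02-fold.

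**Figure D3:**
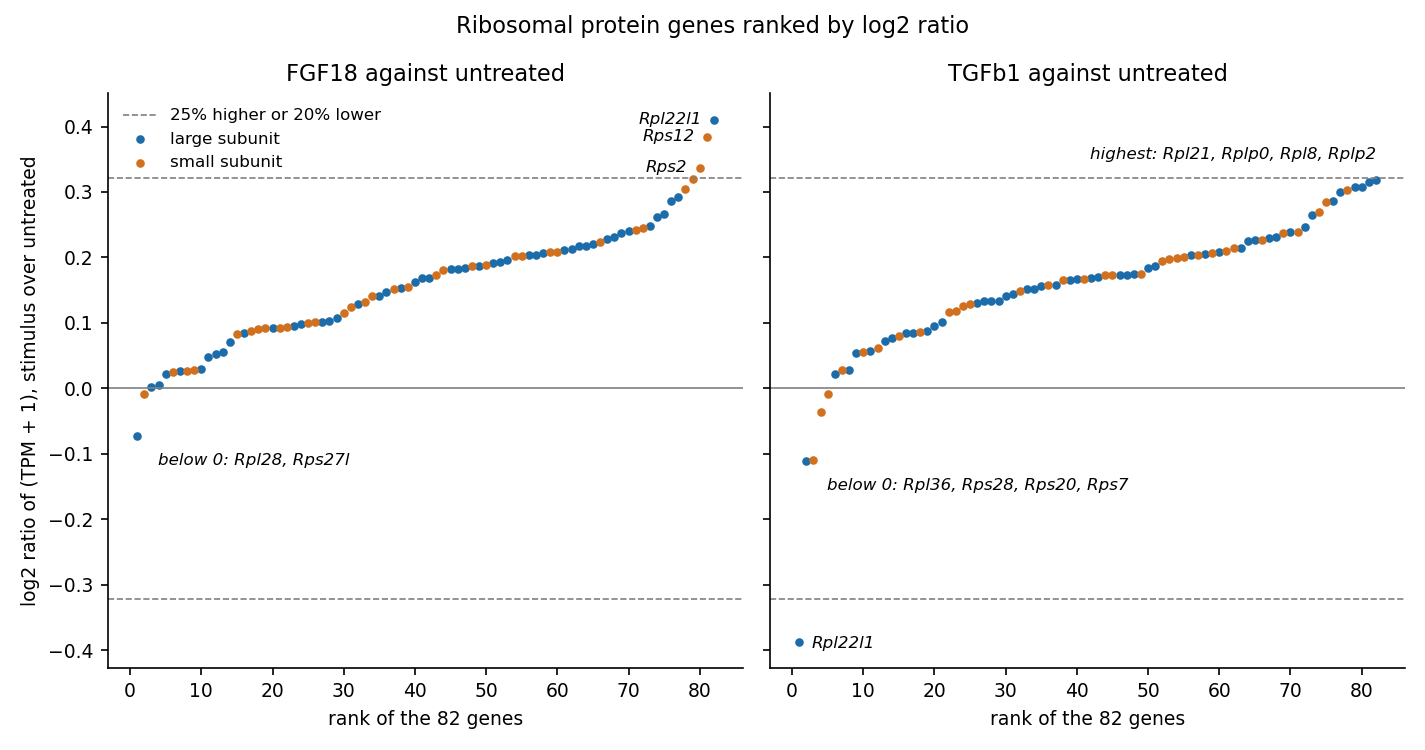
The 82 ribosomal protein genes are ranked by the log2 ratio of (TPM + 1) of FGF18 (left) or TGFb1 (right) over untreated, large subunit in blue and small subunit in orange, with dashed lines at 25% higher and 20% lower. With FGF18, 80 genes lay above 0 and 3 above the upper line. With TGFb1, 77 lay above 0, 0 above the upper line and *Rpl22l1* below the lower line.

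With TGFb1, 77 of the 82 genes were higher than in untreated cells (51.5% of all genes) and 5 lower (48.5%). The median log2 ratio was 0.17, 1.12-fold, against 0.01 for the other genes with at least 10 TPM and 0.04 for those with at least 300 TPM, of which 57.0% were higher. Ratios ran from -0.39 to 0.32. The SD over the 82 genes was 0.11, and 0.45 over the other genes. Past 1.1-fold, 53 were higher (33.4% of all genes) and 1 lower (31.1%). Past the limit of 25% higher or 20% lower, 0 were higher, where 15.7% of all genes were, and 1 was lower, where 14.3% were. Past 1.5-fold there were 0 in either direction, against 6.10% and 5.47% of all genes.

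The largest ratios with TGFb1 lay just under the limit. *Rpl21* was at 389 TPM untreated and 485 TPM with TGFb1, 1.247-fold. *Rplp0*, the scaffold of the P stalk, was at 824 and 1027 TPM, 1.245-fold. *Rpl8*, a protein near the peptide-forming centre, was at 412 and 511 TPM, 1.24-fold. *Rpl8* shares only 5.45% of its words with other genes. *Rplp2* was at 819 and 1013 TPM, 1.24-fold. Both *Rplp0* and *Rplp2* belong to the P stalk, whereas *Rpl21* and *Rpl8* lie elsewhere on the large subunit.

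The gene past the limit in the other direction was *Rpl22l1*, at 187 TPM with TGFb1 against 244 TPM untreated, 0.76-fold. *Rpl36* was at 670 TPM untreated and 620 TPM with TGFb1, 0.93-fold. *Rps28* was at 1087 and 1007 TPM, 0.93-fold. *Rps20*, at 437 and 426 TPM, and *Rps7*, at 1103 and 1097 TPM, differed by 0.98-fold and 0.99-fold. With the row that shares most words added, *Rps20* with *Gm4332* was at 1.04-fold and *Rps7* with *Gm6472* at 0.98-fold. The log2 ratio of *Rpl22l1* was -0.39 and that of *Rpl36*, the next, -0.11.

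Both comparisons use the same untreated cells, so the stimulated groups were also set against each other directly. Ribosomal protein genes hardly differed: the median log2 ratio of FGF18 over TGFb1 was 0.0025, and 42 of 82 genes were higher with FGF18 (42.6% of all genes) and 40 lower (57.4%). Past 1.1-fold, 6 were higher (25.2% of all genes) and 3 lower (38.6%). Past the limit, 1 was higher, where 11.5% of all genes were, and 0 were lower, where 20.0% were. The same single gene passed 1.5-fold (4.18% of all genes), and 0 were lower by as much (6.16%). That gene was *Rpl22l1*, at 325 TPM with FGF18 and 187 TPM with TGFb1, 1.74-fold. The next were *Rpl38*, at 1188 and 1050 TPM, and *Rpl35*, a protein of the exit tunnel rim, at 897 and 793 TPM, each 1.13-fold. *Rps12* was 1.11-fold higher with FGF18. *Rps6*, the classical substrate of the kinases downstream of mTOR, was at 1067 TPM untreated, 1228 TPM with FGF18 and 1109 TPM with TGFb1, 1.11-fold higher with FGF18 than with TGFb1. At the other end, *Rps27l* was at 0.88-fold, *Rpl31*, also at the exit tunnel, at 0.88-fold, *Rpl28* at 0.90-fold, and *Rps13* and *Rpl8* at 0.92-fold each. With the row that shares most words added, *Rps12* hardly differed, at 438 TPM with FGF18 and 432 TPM with TGFb1. On the same sums *Rpl38* was at 1574 and 1486 TPM, *Rpl35* at 1668 and 1503 TPM and *Rps6* at 1298 and 1211 TPM. *Rpl31* came to 829 and 887 TPM, *Rpl28* to 756 and 796 TPM and *Rps13* to 626 and 693 TPM.

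**Figure D4:**
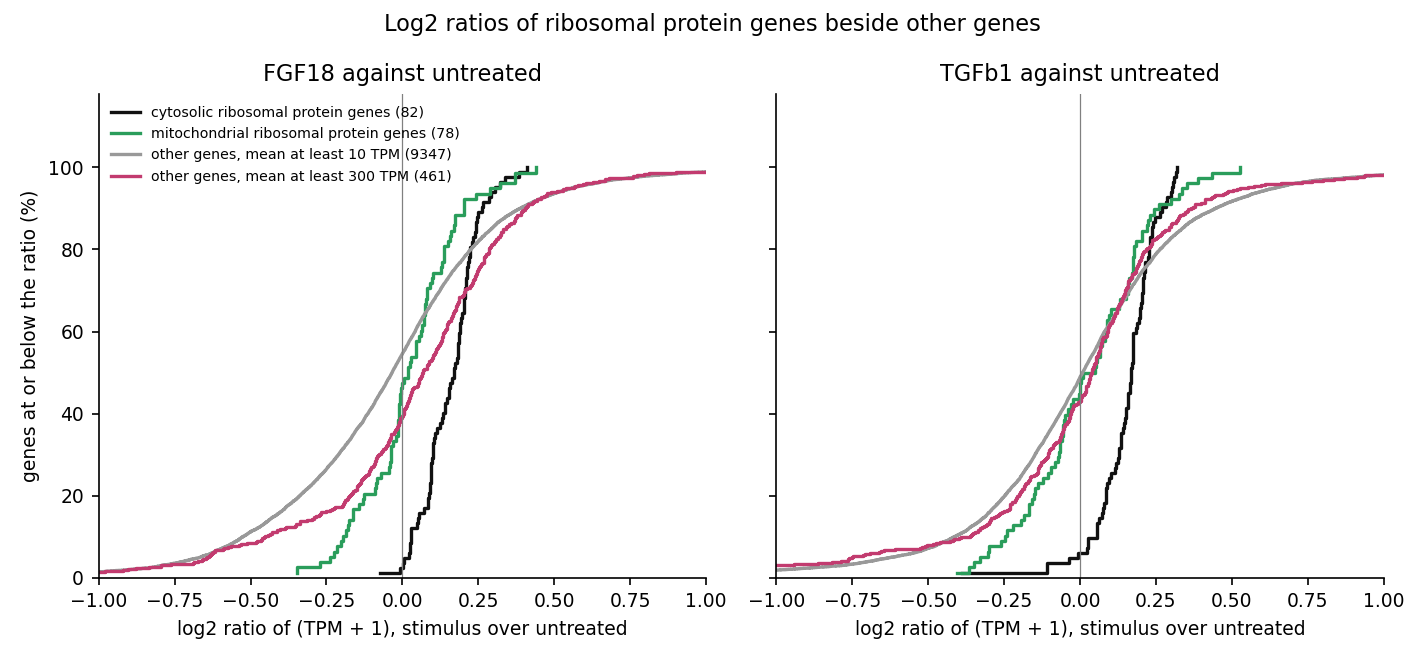
The curves give, for each log2 ratio of (TPM + 1) over untreated on the x axis, the percentage of genes at or below it, for the 82 cytosolic ribosomal protein genes (black), 78 mitochondrial ribosomal protein genes (green), 9347 other genes whose mean reached 10 TPM (grey) and 461 with at least 300 TPM (red). The axis stops at -1 and 1. The black curve is steep and lies to the right of 0 at its median of 0.17 in both panels, while the green curve crosses near 0.02 and 0.03.

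Large and small subunit genes were compared because each ribosome takes up both. With FGF18 the median log2 ratio was 0.18 over 49 large and 0.15 over 33 small subunit genes, and with TGFb1 0.17 over each. With FGF18, 48 of 49 large and 32 of 33 small subunit genes were higher. With TGFb1, 47 of 49 and 30 of 33 were. The summed level of the large subunit was 1.24 times that of the small subunit in untreated cells, 1.24 times with FGF18 and 1.26 times with TGFb1. Summed levels depend on the larger number of large subunit genes: the median gene of the large subunit was at 648 TPM untreated, 707 TPM with FGF18 and 715 TPM with TGFb1, below that of the small subunit at 770, 821 and 859 TPM, so that the ratio of medians was 0.84, 0.86 and 0.83.

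The P stalk, made of *Rplp0* with copies of *Rplp1* and *Rplp2*, reaches out from the large subunit to recruit elongation factors. *Rplp0* was at 824 TPM untreated, 959 TPM with FGF18 and 1027 TPM with TGFb1. *Rplp1* was at 735, 848 and 859 TPM. *Rplp2* was at 819, 968 and 1013 TPM. All 3 were lowest in untreated cells and highest with TGFb1, and the stalk held 0.238%, 0.277% and 0.290% of all transcripts. Its median log2 ratio was 0.22 with FGF18 and 0.31 with TGFb1. The remaining large subunit genes held 3.07%, 3.43% and 3.43%.

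*Rpsa*, a small subunit protein also known as the laminin receptor, was at 571 TPM untreated, 651 TPM with FGF18 and 689 TPM with TGFb1. *Rps27a*, which is made as a fusion with ubiquitin, was at 885, 965 and 1022 TPM. Both stood in the same order of groups as the stalk. Some ribosomal proteins lie outside the symbol rule. *Fau*, a small subunit fusion, was at 339, 366 and 376 TPM. *Rack1*, a signalling scaffold on the small subunit, was at 580, 670 and 626 TPM. Neither was past the limit with either stimulus. *Rps3a1*, which the rule also leaves out, was at 1087, 1260 and 1255 TPM.

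Several ribosomal proteins have paralogues, some of which are used in particular tissues. *Rpl22*, which in mouse represses *Rpl22l1*, was at 378 TPM untreated, 406 TPM with FGF18 and 426 TPM with TGFb1. *Rpl22l1* was at 244, 325 and 187 TPM. The groups thus stood in a different order for the pair, with *Rpl22* highest and *Rpl22l1* lowest in TGFb1. *Rpl22* shares 9.03% of its words with other genes. *Rpl22l1* shares 72.3%, but the row that shares most of them, *Gm15421*, was listed at only 4.49, 4.15 and 3.73 TPM, so adding it left the ratios at 1.32-fold with FGF18 and 0.77-fold with TGFb1.

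*Rps27l*, a target of p53, was at 1457 TPM untreated, 1448 TPM with FGF18 and 1644 TPM with TGFb1. Its partner *Rps27* was at 519, 591 and 567 TPM. *Rps27l* thus stood above *Rps27* in every group, but *Rps27* shares all its words with other genes, *Rps27rt* among them, and *Rps27l* only 9.13%. *Rpl36al* was at 813, 928 and 892 TPM, above its X-linked partner *Rpl36a* at 514, 522 and 545 TPM. Both share all their words with other genes. *Rpl7l1* was at 107, 109 and 109 TPM beside *Rpl7* at 777, 817 and 883 TPM. Of these pairs, only *Rpl22l1* passed the limit with a stimulus.

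The paralogues known from testis and muscle were near the floor. *Rpl10l*, which replaces *Rpl10* in male germ cells of the mouse, was at 0.435, 0.658 and 0.950 TPM beside *Rpl10* at 429, 459 and 482 TPM. *Rpl39l*, another testis form, was at 0.891, 2.51 and 0.588 TPM beside *Rpl39* at 459, 489 and 512 TPM. *Rpl3l*, the muscle form, was listed at 0 in untreated cells and at 0.336 and 0.378 TPM with FGF18 and TGFb1, beside *Rpl3* at 648, 725 and 715 TPM. All of them stayed under 3 TPM in every group, and no fold is given for levels this low. Some symbols, 4 in all, that fit the rule are typed as pseudogenes by GENCODE. *Rpl6l*, at 3.18, 2.75 and 2.31 TPM, and *Rpl32l*, at 3.08, 1.79 and 2.40 TPM, stayed under 10 TPM. *Rps12l1*, at 97.1, 105 and 103 TPM, shares all its words, above all with *Rps12*. *Rps4l*, at 56.2, 60.4 and 64.9 TPM, shares 6.67% and stands beside the X-linked *Rps4x* at 599, 642 and 676 TPM.

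Genes named as translation factors were set beside the ribosomal proteins. All 7 genes listed as elongation factors were higher with FGF18, with a median log2 ratio of 0.23, and all 7 with TGFb1, with a median of 0.32. Past the limit, 2 were higher with FGF18, where 12.9% of all genes were, and 3 with TGFb1, where 15.7% were. *Eef1a1*, which brings aminoacyl-tRNA, was at 2330 TPM untreated, 2558 TPM with FGF18 and 2565 TPM with TGFb1. *Eif5a*, which helps peptide bonds form at difficult residues, was at 1354, 1843 and 1660 TPM. *Eef2*, the translocase, was at 282, 295 and 312 TPM, the smallest ratio of the list with FGF18. *Eef1e1*, which is on the list by its gene name only, was at 34.4, 44.8 and 50.1 TPM, 1.30-fold and 1.46-fold. It is among the genes past the limit with each stimulus.

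Among 29 initiation factors and poly(A) binding proteins the medians were 0.13 with FGF18 and 0.09 with TGFb1. Of these, 4 were past the limit higher with FGF18 (12.9% of all genes) and 3 with TGFb1 (15.7%), shares near or below those of all genes, and 0 were lower with either (20.9% and 14.3%). *Pabpc1*, the poly(A) binding protein and itself a TOP mRNA, was at 163 TPM untreated, 257 TPM with FGF18 and 202 TPM with TGFb1. *Eif5* was at 341, 472 and 461 TPM. *Eif1*, the most abundant of the list, was at 1680, 1887 and 1712 TPM. *Eif4a2* was at 197, 158 and 179 TPM, lower in both stimulated groups.

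Other genes with TOP tracts, 7 in number, had medians of 0.25 with FGF18 and 0.10 with TGFb1. *Nap1l1*, a histone chaperone, was at 262 TPM untreated, 373 TPM with FGF18 and 323 TPM with TGFb1. *Tpt1* was at 1364, 1623 and 1461 TPM, and *Npm1*, a nucleolar chaperone, at 606, 749 and 694 TPM. *Vim*, the intermediate filament protein of mesenchymal cells, was at 453, 556 and 617 TPM. *Naca* was at 663, 647 and 694 TPM. *Nap1l1*, *Tpt1* and *Npm1* were highest with FGF18, and *Vim* and *Naca* with TGFb1.

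Genes that build the ribosome differed less evenly than the proteins it holds. For 11 genes of RNA polymerase I and rDNA transcription the medians were -0.01 with FGF18 and 0.02 with TGFb1, with *Polr1d* at 134 TPM untreated, 131 TPM with FGF18 and 117 TPM with TGFb1 and *Polr1a*, the largest subunit, at 22.7, 17.8 and 21.8 TPM. For 10 core proteins of small nucleolar ribonucleoproteins they were 0.06 and 0.20. *Nhp2* was at 103, 149 and 124 TPM and *Nop58* at 214, 204 and 187 TPM, on opposite sides of untreated. For 25 small subunit assembly factors the medians were 0.09 and 0.07, with *Heatr1* at 19.7, 28.2 and 22.4 TPM and *Nop14* at 49.2, 42.1 and 39.4 TPM. For 33 large subunit assembly factors they were 0.09 and 0.14. *Noc2l* was at 50.7, 81.5 and 82.0 TPM, 1.61-fold and 1.62-fold, whereas *Noc3l* was at 13.6, 9.61 and 12.2 TPM. Each of these lists spanned both signs and held an SD over genes of 0.13 to 0.21, above that of the ribosomal proteins. Their median untreated levels were lower, at 37.2, 136, 49.2 and 57.9 TPM in the order given, against 662 TPM for ribosomal proteins. The part of level in this spread was not tested.

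The list of mTOR, MYC and translation regulators linked to them, 12 genes, had medians of 0.08 with FGF18 and 0.10 with TGFb1. *Eif4ebp1*, a repressor of the cap-binding protein that mTOR inactivates, was at 401 TPM untreated, 578 TPM with FGF18 and 431 TPM with TGFb1. *Rheb*, the activator of mTOR, was at 389, 397 and 466 TPM. *Mtor* itself was at 11.7, 13.97 and 15.5 TPM, and *Tsc2*, a brake on Rheb, at 54.6, 45.3 and 44.9 TPM. The cap-binding protein gene *Eif4e* was at 231, 271 and 247 TPM. *Eif4ebp1* was thus highest with FGF18, and *Rheb* and *Mtor* with TGFb1.

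**Figure D5:**
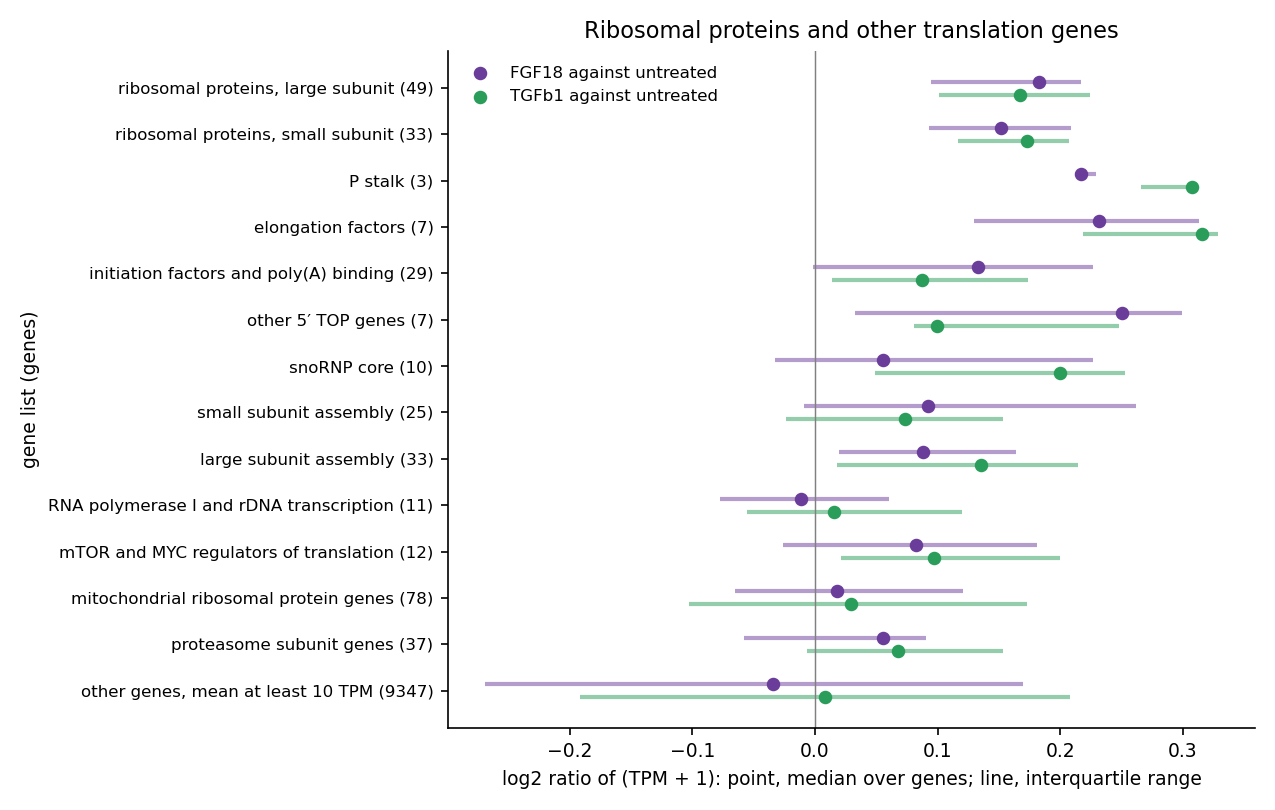
For each gene list, with its number of genes at 10 TPM or more, points give the median log2 ratio of (TPM + 1) over untreated with FGF18 (purple) and TGFb1 (green), and lines the interquartile range over genes. Both ribosomal subunits lay between 0.15 and 0.18, the elongation factors at 0.23 and 0.32, RNA polymerase I near 0 and mitochondrial ribosomal proteins at 0.02 and 0.03.

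The 78 mitochondrial ribosomal protein genes and 37 proteasome subunit genes, sets of other large complexes, give a scale for these shifts. The mitochondrial genes had medians of 0.02 with FGF18 and 0.03 with TGFb1, with 41 of 78 and 43 of 78 higher. The proteasome genes had medians of 0.06 and 0.07, with 25 of 37 and 26 of 37 higher. Their SDs over genes were 0.16 and 0.20 for the mitochondrial and 0.21 and 0.20 for the proteasome genes, against 0.09 and 0.11 for the cytosolic ribosomal proteins. The cytosolic genes also stand at higher levels, and the part of level in the spread was not tested.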

How the data were processed

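Levels of HSC mRNA in untreated, FGF18 and TGFb1 groups were taken from 2 tables of 31447 and 31691 rows. Libraries were amplified cDNA. The authors mapped reads to GRCm38 and used the RaNA-seq platform, and deposited TPM as 1 mean per group. Multiplied by 3, all values above 0 were whole at the sixth decimal, as means of 3 samples would be. Not given in the sources used here are aligner, counting program and annotation release. The deposited columns of the authors' own comparison (log2 fold change, its error, statistic, p-value and adjusted p-value) were not used, so no test was run. The column shared by both tables was read as untreated, and the other as the stimulus. Of the symbols, 30595 occurred once in each table, and their untreated values were identical in all 30595. Group columns summed to between 999985 and 999995 TPM. There were 0 columns of unknown samples, and depth is unknown.

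Ratios are log2 of (TPM + 1), with a pseudocount of 1 TPM. Fold values in the text are ratios of TPM. A gene was past the limit at a log2 ratio of 0.32 on the former scale. Background counts use genes whose mean reached 10 TPM. Members and lists were chosen with earlier results of these data known. The genes named are the P stalk, *Rpsa*, *Rps27a*, *Rps6*, paralogues with partners, the 5 highest and 5 lowest levels, the 5 largest and smallest ratios of each comparison, and up to 3 abundant and the most extreme genes of each list. *Rps3a1*, *Rps27rt* and *Rps23* with their sharing rows were named after their values were seen. Some results are not reported here. Words of 75 bases of the longest GENCODE M21 coding sequence were looked up in transcripts of other genes. The formula of the ratios and the limit were run on untreated levels multiplied by set folds without noise, which checks the arithmetic only. Python 3.11.15, numpy 2.4.6, pandas 2.3.3 and matplotlib 3.10.9 were used.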

Additional observations from a re-analysis of the deposited data

How the results depend on the processing

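Levels are given as means only, so leaving out a replicate, another normalization of counts and a count test were not run. The error and p-values of the authors' own comparison were not used, so every value here is limited by an unassessed spread between samples. No paired analysis was possible because the tables hold 1 mean column per group. As no spread was used, a value or count was taken as unaltered when it stayed within 1.5 times. The main counts past the limit are 3 higher and 0 lower (FGF18), 0 and 1 (TGFb1), and 1 and 0 (FGF18 over TGFb1). At 1.1-fold the higher counts were 49, 53 and 6, and 3 genes were lower with FGF18 than with TGFb1. At 1.5-fold they were 0 higher with FGF18 and 0 lower with TGFb1. Without the filter on low values, 5, 2 and 2 genes were higher, and 1 with FGF18 and 2 with TGFb1 lower. Without paralogues ending in l, al or l1, 0 genes were lower with TGFb1 and 0 higher with FGF18 than with TGFb1. Other alternatives, chosen after seeing the data, left out pseudogenes, kept only genes with under 10% shared words, added the row that shares most words or took markers out of the total. Among the 9 genes with under 10% shared words, 0 were higher with FGF18, 0 lower with TGFb1 and 0 higher with FGF18 than with TGFb1, and the median log2 ratio with FGF18 was 0.10 in place of 0.17. The median of FGF18 over TGFb1, 0.0025, became -0.0048 there and -0.0054 after subtracting the median of genes at 100 TPM or more. That subtraction took 0.04 from the FGF18 and 0.03 from the TGFb1 ratios and left medians of 0.12 and 0.14. The large to small ratio was 0.84 untreated, 0.86 with FGF18 and 0.83 with TGFb1 as a ratio of medians, against 1.24, 1.24 and 1.26 for sums. It thus crossed 1 in every group, although only the TGFb1 value altered by more than 1.5 times. The share of total TPM stayed 1.11-fold to 1.12-fold above untreated under all 5 alternatives. In all, 91 of 111 alternative values stayed within the limit, and the cause of the others was not tested.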

Other observations

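The 251 rows of ribosomal protein pseudogenes whose symbols carry -ps, of which 26 had a mean of at least 10 TPM, held 5321 TPM untreated, 5573 TPM with FGF18 and 5812 TPM with TGFb1. That was 1.05-fold and 1.09-fold above untreated, against 1.12-fold for the ribosomal protein genes themselves. *Rps23-ps1* was at 928, 996 and 988 TPM and *Rpl10-ps3* at 901, 918 and 940 TPM. *Rpl37rt*, a retrotransposed copy outside the symbol rule, was at 137, 185 and 197 TPM.

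The 13 genes encoded in the mitochondrial genome held 33804 TPM untreated, 36980 TPM with FGF18 and 36382 TPM with TGFb1, or 3.38%, 3.70% and 3.64% of all transcripts. The nuclear genes of the mitochondrial ribosome held 0.780%, 0.789% and 0.802%. Both totals were lowest in untreated cells.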
